A study of Mus musculus with 12 samples.

Results

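The cell cycle and proliferation genes followed here are 40 named genes whose products copy DNA, move cells from G1 into S phase or carry out mitosis, read on 12 single-colour Agilent mouse arrays. They were listed by name and not by a measured value, but earlier results of these data were known when they were chosen. The list holds 11 S phase genes (Mcm2 to Mcm7, Pcna, Ccne1, Ccne2, Rrm1 and Rrm2). It also holds 7 other genes of the G1/S step (Cdk2, E2f1, Cdc6, Cdt1, Cdc45, Tyms and Tk1) and 22 mitotic genes. Each gene was represented by its brightest probe, and 39 of the 40 were among the 13708 genes tested. Ccne2, the second E-type cyclin, was not tested because its probe was well above background on 0 of 12 arrays, with raw intensities of 2.45 to 7.78.

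The study compared bone marrow cells of recipient mice repopulated with C57BL/6 fetal liver cells of 4 genotypes: wild-type, Tet2KD/KD (a knockdown allele of the DNA demethylase gene Tet2), Ezh2-/- (loss of the H3K27 methyltransferase gene Ezh2) and Tet2KD/KDEzh2-/-, here called the double mutant. LSK cells are the Lineage-negative Sca-1+ c-Kit+ fraction that holds stem and multipotent progenitor cells, and GMPs are granulocyte-macrophage progenitors. Double mutant cells were also taken from mice with a myelodysplastic/myeloproliferative neoplasm (MDS/MPN) and from mice with refractory anemia with excess of blasts (RAEB). Each cell type was hybridised once in each of these 6 conditions, so no group has a replicate. Every test below therefore pools arrays over conditions or cell types. The labels give neither animal age nor how many donors or recipients an array represents, and diseased mice are represented only by double mutant cells.

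DNA replication is licensed in G1, when ORC, Cdc6 and Cdt1 load the MCM helicase, and it starts when cyclin-dependent kinases fire origins through Cdc45. E2F factors drive the genes of this step, and the DREAM, MYB-MuvB and Foxm1 complexes time the mitotic genes. In marrow, most long-term stem cells are quiescent, while committed myeloid progenitors divide often. Fewer cycling cells in a sorted population and less transcript per cycling cell cannot be told apart in bulk RNA.

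The promoters below show words common in cell cycle promoters, in members that were higher in GMPs than in LSK cells. RefSeq promoters (GRCm38.p6) were held for 34 of the 40 members, and the 250 bases before the start site were searched on both strands for CCAAT (the NF-Y box), for TTTGAA (the cell cycle homology region, CHR) and for the E2F word TTCCCGC with its variants, which are TTGGCGC and also TTCGCGC as well as TTGCCGC. The lines give Cdc45 (chr16:18811973-18812222, minus strand), Rrm2 (chr12:24708004-24708253, plus strand), Plk1 (chr7:122159185-122159434, plus strand) and Cenpa (chr5:30666636-30666885, plus strand), 5′ to 3′ on the gene's strand, with matches in capitals.
Cdc45: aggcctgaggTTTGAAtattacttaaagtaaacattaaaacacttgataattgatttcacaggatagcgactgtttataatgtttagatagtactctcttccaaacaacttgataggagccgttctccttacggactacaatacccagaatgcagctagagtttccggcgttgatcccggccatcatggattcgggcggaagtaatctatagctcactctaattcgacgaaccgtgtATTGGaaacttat
Rrm2: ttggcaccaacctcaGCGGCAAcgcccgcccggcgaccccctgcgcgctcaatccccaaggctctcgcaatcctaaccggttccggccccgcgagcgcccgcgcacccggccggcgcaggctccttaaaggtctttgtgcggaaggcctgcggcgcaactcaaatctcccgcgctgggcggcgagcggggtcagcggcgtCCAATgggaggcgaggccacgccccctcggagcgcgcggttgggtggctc
Plk1: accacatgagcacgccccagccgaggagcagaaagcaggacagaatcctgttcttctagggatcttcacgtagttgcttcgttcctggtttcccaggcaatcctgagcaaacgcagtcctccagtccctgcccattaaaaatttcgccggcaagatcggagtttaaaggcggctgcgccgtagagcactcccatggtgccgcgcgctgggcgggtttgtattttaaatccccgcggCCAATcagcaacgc
Cenpa: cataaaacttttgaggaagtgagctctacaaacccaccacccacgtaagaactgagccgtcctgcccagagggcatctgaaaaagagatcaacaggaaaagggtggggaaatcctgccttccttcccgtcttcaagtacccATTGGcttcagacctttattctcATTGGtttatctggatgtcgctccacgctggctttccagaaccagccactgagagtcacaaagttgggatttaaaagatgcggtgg
Cdc45 had a CHR match on its own strand and a CCAAT box on the opposite strand close to the start site. Rrm2 had an E2F word on the opposite strand and a CCAAT box, Plk1 a single CCAAT box, and Cenpa a pair of CCAAT boxes on the opposite strand. A CCAAT match was present in 16 of 18 mitotic members with a promoter (88.9%) in 8 of 9 S phase members and in 2 of 7 other G1/S members (28.6%), against 37.5% of 27025 genes. CHR matches occurred in 6 of 18 mitotic members (33.3%), 1 of 9 S phase members, 1 of 7 other G1/S members and 18.3% of all genes. E2F words occurred in 5 of 9 S phase members (55.6%), 3 of 18 mitotic members (16.7%), 2 of 7 other G1/S members and 9.01% of all genes. These matches describe letters in a fixed window and are not measured binding. E2f1, Ccne1, Cdt1, Tyms, Tk1, Birc5 and Nusap1 held none of the words searched. The printed promoters were chosen among called members that held a match, so each shows a word by that choice. Ccne1, E2f1 and Cdt1, the members with the smallest adjusted p, were passed over for that reason.

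Levels are log2 processed signal minus the array's 75th percentile, so a level of 0 lies at that percentile, and levels of different genes are not compared. The arrays' 75th percentile lay between 168.5 and 389.4 intensity units, and 45.6% to 52.3% of gene spots were well above background, with the lowest 75th percentiles and the lowest shares on both diseased GMP arrays. The 8 arrays without disease were on 1 slide, the diseased LSK arrays on another and the diseased GMP arrays on the third. The median of 7 GMP markers was 7.86 to 8.98 on GMP arrays and 1.69 to 5.51 on LSK arrays, and the median of 9 LSK markers was 3.95 to 4.83 on LSK arrays and -0.25 to 1.59 on GMP arrays. Tet2 was lower on the Tet2KD/KD than the wild-type array in both cell types (-1.61 against 0.44 in LSK, -0.64 against 1.57 in GMP). The single Ezh2 probe did not separate the genotypes (2.82 on the LSK array labelled Ezh2-/- against 2.76 on wild-type LSK); the sources used here do not say whether it lies in the deleted part, so it checks nothing.

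The first comparison asked how the members differ between GMPs and LSK cells. Over all 6 pairs of arrays, 11 of 39 members were higher in GMPs and 0 were lower, beside 25.7% of all genes called higher and 18.9% called lower (limma with condition as a block, Benjamini-Hochberg adjusted p under 0.05). The called share of the members was thus close to the background, and the LSK and GMP ranges overlapped for all 39 members over the 12 arrays. By role, 3 of 10 S phase members, 3 of 7 other G1/S members and 5 of 22 mitotic members were higher. The median member difference was 0.34 on the log2 scale, against 0.16 for all genes. Under quantile normalization the median of all genes moved to 0.01 and that of the members to 0.05, the S phase median turned to -0.13, and the calls were 3 higher and 1 lower.

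**Figure D1:**
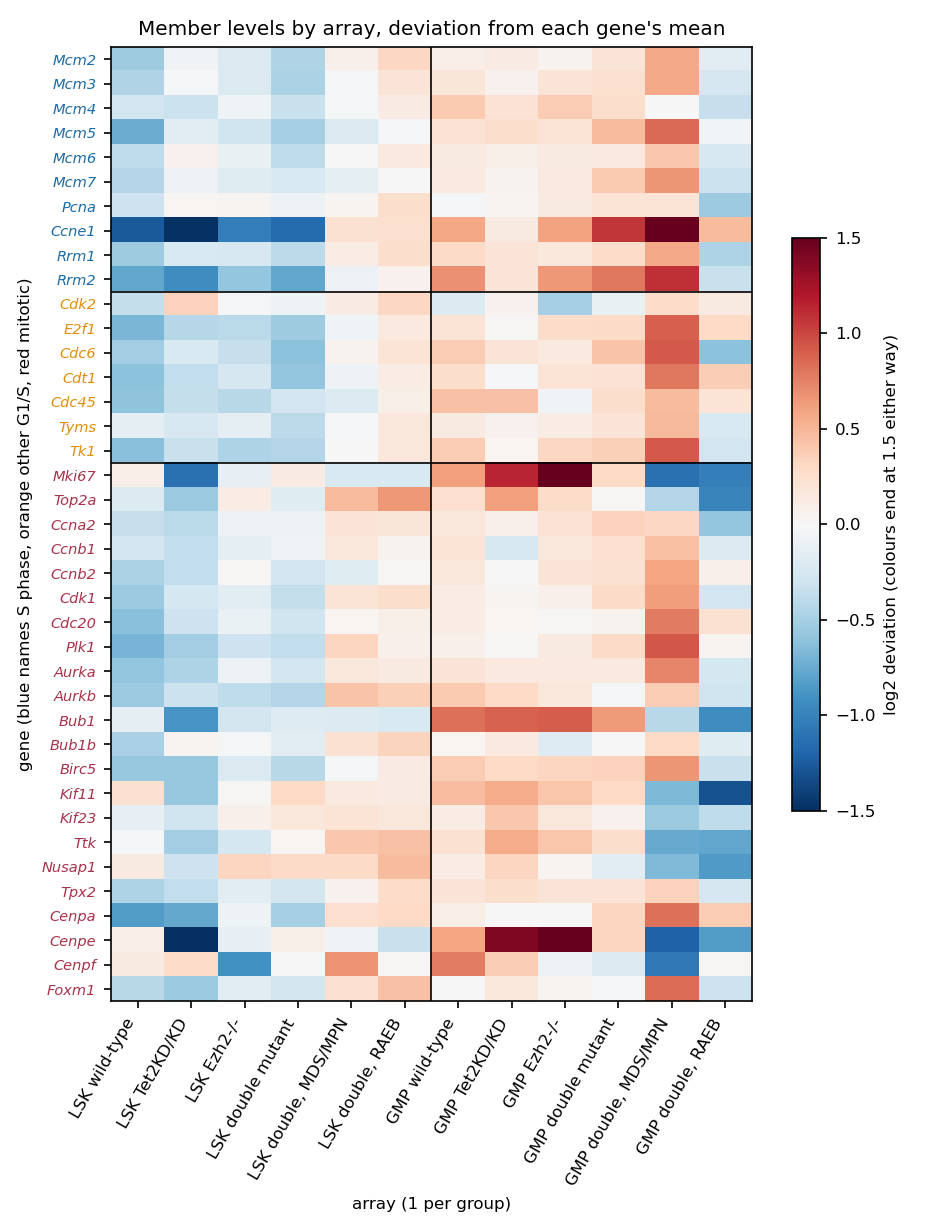
Levels of the 39 tested members (rows) on each of the 12 arrays (columns), as the log2 deviation from the gene's own mean over all arrays; colours end at 1.5 either way, and horizontal lines part S phase, other G1/S and mitotic genes. Of the members, 24 have their highest level on the GMP MDS/MPN array and 18 their lowest on the wild-type LSK array. The median deviation of all genes tested is also highest on the first (0.25) and lowest on the second (-0.13).

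The pairs of arrays did not behave alike. The GMP level was above the LSK level for 38 of 39 members in wild-type cells, 38 in Tet2KD/KD, 36 in Ezh2-/- and 35 in double mutant cells without disease, for 29 in MDS/MPN and for 7 in RAEB. The median GMP minus LSK difference was 0.64, 0.49, 0.37 and 0.53 in the conditions without disease, 0.46 in MDS/MPN and -0.46 in RAEB, while over all genes it stayed between 0.02 and 0.29. Within the 8 arrays without disease, which share a slide, 27 of 39 members were higher in GMPs and 0 lower, beside 30.8% of all genes higher. For 30 of 39 members (76.9%) all 4 GMP levels lay above all 4 LSK levels, against 30.8% of all genes. The median difference there was 0.51, against 0.12 for all genes. With quantile normalization of the same 8 arrays, 10 members were higher and 1 lower, beside 24.9% of all genes higher and 25.5% lower, with medians of 0.27 for the members and 0.03 for all genes. Leaving out the RAEB pair from the 6 pairs gave 26 members higher, beside 30.1% of all genes, and leaving out any other pair gave 5 to 7, beside 17.6% to 22.8%.

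Ccne1, the cyclin E that activates Cdk2 at the G1/S step, showed the largest difference among the members. Its levels on the LSK arrays without disease were 1.86 in wild-type, 1.64 in Tet2KD/KD, 2.08 in Ezh2-/- and 1.96 in the double mutant, and on the GMP arrays 3.70, 3.25, 3.72 and 4.19 in the same order. In disease it was 3.35 (MDS/MPN) and 3.36 (RAEB) in LSK cells and 4.69 and 3.60 in GMPs. All 6 LSK levels lay below the GMP level of the same condition, while the diseased LSK levels lay within the GMP range. The GMP minus LSK difference was 1.49 (SE 0.24, adjusted p = 0.00208), a 2.80-fold difference, and 1.83 (SE 0.14) within the 8 arrays without disease. A dimmer second Ccne1 probe gave 0.86.

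Rrm2, the regulated subunit of the ribonucleotide reductase that makes deoxynucleotides, had levels of 4.07, 3.91, 4.27 and 4.07 on LSK arrays and 5.53, 5.03, 5.49 and 5.64 on GMP arrays in the order wild-type, Tet2KD/KD, Ezh2-/- and double mutant. In RAEB the order turned, with 4.91 in LSK cells and 4.50 in GMPs. Its difference was 1.03 over the 6 pairs (SE 0.26, adjusted p = 0.0137) and 1.35 within the 8 arrays without disease. With quantile normalization the difference over the 6 pairs was 0.60 and missed the threshold (adjusted p = 0.0677). Rrm1, the large subunit of that enzyme, gave 0.34 (adjusted p = 0.209) over all pairs and 0.58 (adjusted p = 0.0112) within the 8.

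The MCM genes encode the hexameric helicase that unwinds DNA at the fork. Mcm5 was the one MCM gene called over all pairs, at 0.65 (SE 0.17, adjusted p = 0.0160); it lost the call under quantile normalization, with a difference of 0.16. Mcm2, Mcm3, Mcm4, Mcm6 and Mcm7 gave 0.22 to 0.36 over all pairs without a call. Within the 8 arrays without disease every MCM gene had all GMP levels above all LSK levels, and all but Mcm6 were called, at 0.42 to 0.72. These calls depended on the normalization. With quantile normalization of the same 8 arrays, 2 of 10 S phase members were called higher, against 8 without it. The S phase median there was 0.09, against 0.51. Pcna, the sliding clamp of the DNA polymerases, differed by 0.003 over all pairs (SE 0.17, adjusted p = 0.991) and by 0.17 within the 8 (adjusted p = 0.244), and its groups overlapped in both.

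Among the other G1/S genes, E2f1 (the transcription factor that activates S phase genes) was 2.99 to 3.28 on the LSK and 3.69 to 3.97 on the GMP arrays without disease. Its difference over all pairs was 0.66 (SE 0.14, adjusted p = 0.00754). Cdt1, the licensing factor that loads MCM, was higher by 0.60 (SE 0.14, adjusted p = 0.00926), and Cdc45, the helicase cofactor, by 0.59 (SE 0.15, adjusted p = 0.0133). The calls of Ccne1, E2f1 and Cdc45 held in the 18 alternatives whose fits differed from the reported one and from each other. Tk1 (thymidine kinase) and Tyms (thymidylate synthase), the salvage and de novo routes to thymidylate, missed the threshold over all pairs (adjusted p = 0.0554 and 0.196) and were called within the 8 arrays, at 0.73 and 0.36. Cdc6, which loads MCM with Cdt1, gave 0.71 there, but its dimmer second probe had the opposite sign over all pairs (-0.44 against 0.49). Cdk2, the partner kinase of cyclin E, did not follow Ccne1: its difference was -0.11 over all pairs and -0.16 within the 8, with no call and overlapping groups.

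**Figure D2:**
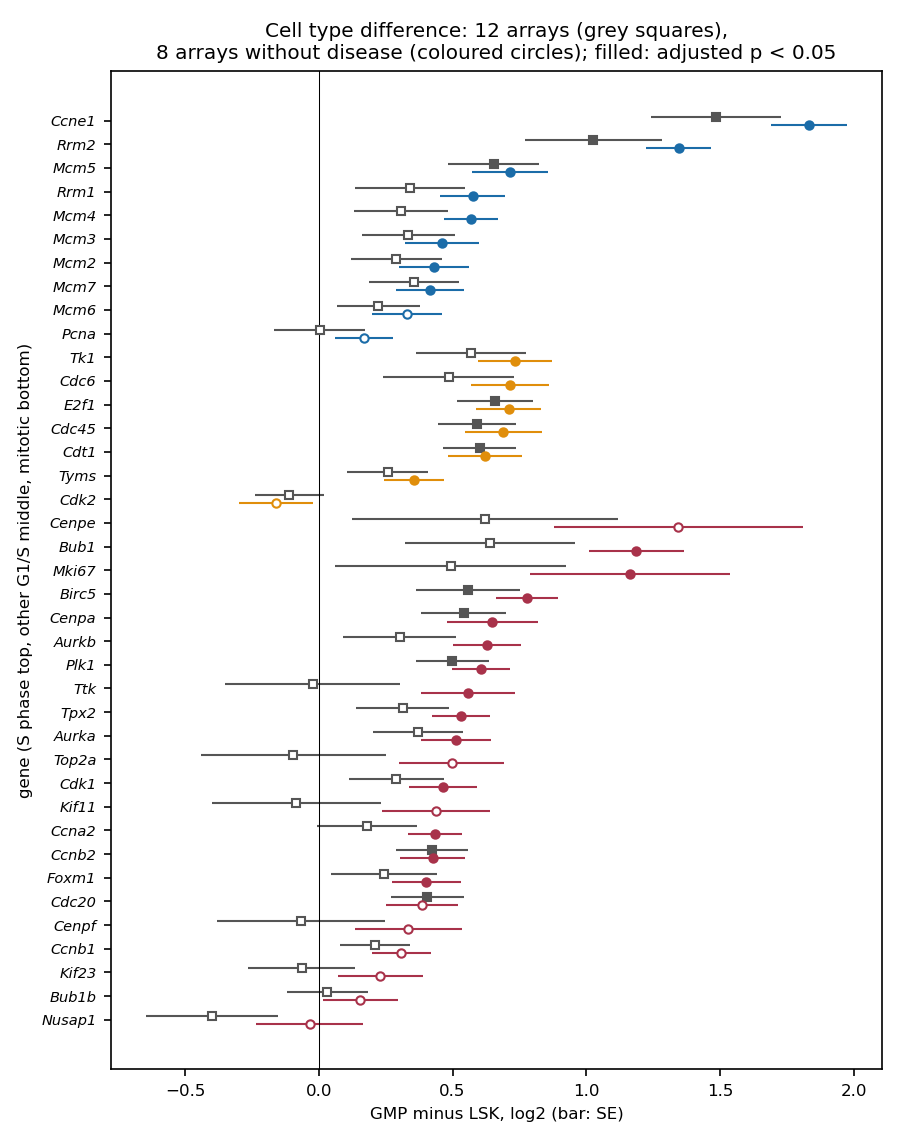
GMP minus LSK difference of each member on the log2 scale with its standard error, over all 12 arrays (grey squares) and within the 8 arrays without disease (coloured circles); filled symbols have an adjusted p under 0.05. Of the 39 members, 11 are filled over 12 arrays and 27 within 8 arrays, and Ccne1 and Rrm2 lie farthest to the right among the S phase genes.

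The mitotic members called over all pairs were Plk1 (a kinase of mitotic entry and spindle assembly) at 0.50, Cenpa (the centromeric histone H3 variant) at 0.54, Ccnb2 (a B-type cyclin) at 0.42, Cdc20 (an activator of the anaphase-promoting complex) at 0.41 and Birc5 (survivin, of the chromosomal passenger complex) at 0.56, with adjusted p from 0.0204 to 0.0496. Under quantile normalization Ccnb2 and Cdc20 changed sign, to -0.02 and -0.06, and all 5 lost the call. Birc5 was 5.77 to 6.12 on the LSK arrays and 6.64 to 6.72 on the GMP arrays without disease. Its difference there was 0.78 (SE 0.12, adjusted p = 0.00333), and its 2 dimmer probes gave 0.43 and 0.59 over all pairs.

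Bub1, a spindle checkpoint kinase, was 1.07, 0.32, 0.93 and 1.00 on the LSK arrays without disease and 2.03, 2.09, 2.10 and 1.84 on the GMP arrays, in the genotype order above. Those groups did not overlap, and the difference was 1.19 (SE 0.18, adjusted p = 0.00350). Mki67, the proliferation antigen Ki-67, was 4.15, 2.93, 3.93 and 4.17 in LSK cells and 4.66, 5.20, 5.62 and 4.35 in GMPs, a difference of 1.16 (SE 0.37, adjusted p = 0.0447). Its GMP levels were highest in Ezh2-/- and lowest in the double mutant, and its LSK levels were lowest in Tet2KD/KD. Aurkb and Aurka, the Aurora kinases of cytokinesis and of the spindle poles, Tpx2 (an Aurora A activator), Ttk (the Mps1 checkpoint kinase), Ccna2 (cyclin A), Cdk1 (the mitotic kinase) and Foxm1 (the transcription factor of G2/M genes) were also called within the 8, at 0.40 to 0.63. The dimmer Cdk1 probes gave 0.24 and -0.01 over all pairs. Ccnb1 (cyclin B1, the partner of Cdk1) missed the threshold at 0.31, although its 2 dimmer probes gave 1.09 and 0.92 over all pairs. Cenpe (a kinetochore motor), Top2a (topoisomerase II, which untangles chromosomes), Kif11 and Kif23 (spindle and midzone kinesins), Cdc20, Bub1b (the checkpoint protein BubR1) and Cenpf were not called within the 8, and Nusap1, a spindle microtubule protein, gave -0.03. Cenpf, a kinetochore protein, was well above background on 2 of 12 arrays only, so most of its levels lie near background.

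Other cell cycle genes gave counts near these, beside 25.7% of all genes called higher and 18.9% called lower. Of 36 further replication genes, 8 were higher and 0 lower over all pairs, including the origin recognition genes Orc6 (0.64) and Orc1 (0.62), Dbf4 (0.62), the activator of the kinase Cdc7, and the clamp loader subunit Rfc4 (0.63). Of 45 further mitotic genes, 8 were higher, among them Cks2 (0.95), Racgap1 (1.03) and Cdca3 (0.80), and Cdc25b, a phosphatase that activates Cdk1, was lower (-0.73). The G1 cyclins, kinases and MYC genes moved both ways: of 11, Mybl2 (1.43), the MYB of the MuvB complex, and Cdc25a (0.60) were higher, and Mycn (-7.71) and Ccnd1 (-1.13), cyclin D1, were lower. Of 17 E2F, pocket protein and MuvB genes, 3 were higher, including Tfdp1 (0.88) and E2f8 (0.88), and 4 lower, including E2f5 (-1.34) and Tfdp2 (-1.24). Of 7 tested CDK inhibitors, Cdkn3 (0.81) and Cdkn2a (1.37) were higher and Cdkn1c (-3.09), the p57 inhibitor of quiescent stem cells, and Cdkn2d (-0.58) lower.

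The second comparison asked what loss of Ezh2 or knockdown of Tet2 did to the members in cells without disease. For the arrays labelled Ezh2-/- or double mutant against the others (4 against 4), 0 of 39 members were called, beside 0.19% of all genes, and 1 member had an unadjusted p under 0.05. The member differences ran from -0.68 to 0.38 with a median of 0.08, against -0.004 for all genes, and 19 of 22 mitotic members were positive. The smallest p-values were those of Cenpf (-0.68, SE 0.21, adjusted p = 0.393), Ccna2 (0.22, SE 0.10, adjusted p = 0.585) and Ccne1 (0.38, SE 0.16, adjusted p = 0.586). For Tet2KD/KD or double mutant arrays against the others, 0 members were called, beside 0% of all genes, with 0 members at an unadjusted p under 0.05, and the differences ran from -0.47 to 0.33 with a median of -0.01. Cdk2 gave the smallest p (0.33, SE 0.14, adjusted p = 0.818).

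The effect of each genotype was also set against the cell type. For Ezh2, the GMP minus LSK difference of the effect was called for 0 members, beside 0% of all genes, with 0 members at an unadjusted p under 0.05. It was negative for all 22 mitotic members, with a median of -0.31, but positive for 8 of 10 S phase members, with a median of 0.08; over all genes the median was 0.01. The members ran from -0.74 to 0.21. Nusap1 gave -0.68 (SE 0.29, adjusted p = 0.889) and Top2a -0.64 (SE 0.32). The mitotic median lay between -0.31 and -0.24 when each array was left out in turn. The S phase median ran from -0.13 without the Tet2KD/KD LSK array to 0.24 without the wild-type LSK array, and it was negative without the Tet2KD/KD or the double mutant array of either cell type. For Tet2, 0 members were called, beside 0% of all genes, 0 had an unadjusted p under 0.05, and the differences ran from -0.79 to 0.48 with a median of 0.01. The double mutant without disease was set against wild-type in a fit over all 12 arrays. Its standard errors therefore include the spread of the diseased pairs, and are not those of cells without disease alone. In that fit 0 members were called, beside 0% of all genes, and 0 had an unadjusted p under 0.05. The differences ran from -0.55 to 0.29 with a median of 0.08 (2 arrays against 2). That median was -0.12 without the wild-type LSK array, -0.02 without the double mutant GMP array, 0.19 without the double mutant LSK array and 0.29 without the wild-type GMP array.

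The third comparison concerned disease. Against double mutant cells without disease, with cell types pooled, the MDS/MPN and RAEB arrays gave 0 called members, beside 0.0073% of all genes, and 1 member, Cdt1, had an unadjusted p under 0.05. The members ran from -0.86 to 0.67. Cdt1 gave 0.48 (SE 0.21, adjusted p = 0.361) and Cenpa 0.53 (SE 0.24, adjusted p = 0.374). RAEB against MDS/MPN also gave 0 called members, beside 0% of all genes, and Plk1 alone had an unadjusted p under 0.05 (-0.57, SE 0.24, adjusted p = 0.974). The members ran from -0.68 to 0.21, and the pooled difference was negative for all 10 S phase members, with a median of -0.33, against -0.07 for all genes. That pooled value joins opposite signs. In GMPs 0 of 10 S phase members were higher in RAEB (median -0.86), and in LSK cells 10 of 10 were (median 0.16). In GMPs 35 of 39 members had a lower level in RAEB than in MDS/MPN, with a median of -0.65. In LSK cells 28 of 39 (71.8%) were higher in RAEB, with a median of 0.15. All genes shifted the same way by less: 39.0% were higher in RAEB in GMPs (median -0.14) and 57.9% in LSK cells (median 0.04).

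**Figure D3:**
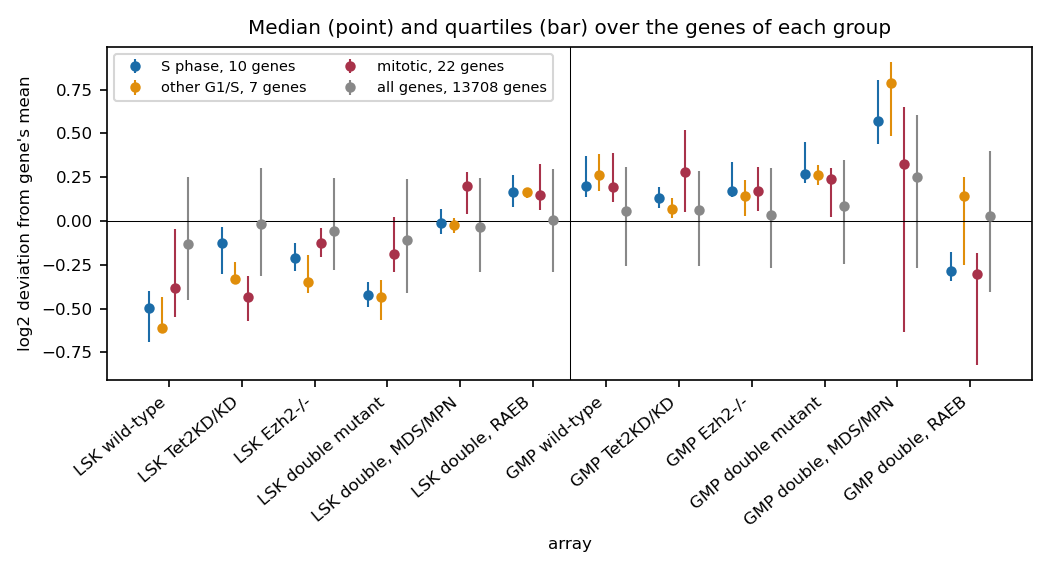
Median (point) and quartiles (bar) over the genes of each group of the log2 deviation from the gene's own mean, on each of the 12 arrays, for S phase (10), other G1/S (7), mitotic (22) and all 13708 genes. On the GMP MDS/MPN array the S phase median is 0.57, against 0.25 for all genes, and the mitotic quartiles run from -0.63 to 0.65. On the GMP RAEB array the S phase and mitotic medians are below 0, and that of all genes is 0.03.

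Because the cell types differed, the diseased arrays were compared with the 4 others of the same cell type, a comparison added after the values were seen. Those 4 arrays span the 4 genotypes, whereas both diseased arrays are double mutant, so genotype is mixed into the disease difference. In LSK cells all 39 members were positive, from 0.03 to 1.47, with a median of 0.44 against 0.09 for all genes. Of them, 4 were called higher, beside 4.65% of all genes. Against the double mutant LSK array alone, 34 of 39 were positive in MDS/MPN and 34 in RAEB, beside 59.4% and 62.4% of all genes. The medians there were 0.38 and 0.47, against 0.12 and 0.16 for all genes. In that comparison Mki67, Bub1, Kif11 and Cenpe were negative in both diseases. For 26 of 39 members (66.7%) both diseased LSK levels lay above all 4 others, against 27% of all genes. The called members were Ccne1 (1.47, SE 0.30, adjusted p = 0.0177), whose diseased levels of 3.35 and 3.36 compare with 1.64 to 2.08, Aurkb (0.81, SE 0.19, adjusted p = 0.0267), Cenpa (0.82, SE 0.22, adjusted p = 0.0410) and Ttk (0.61, SE 0.17, adjusted p = 0.0463). With the normexp background correction (offset 50) Aurkb gave 0.19 (adjusted p = 0.183) and Ttk 0.04 (adjusted p = 0.756). Both probes were dim, with raw intensities of 29.8 to 109 for Aurkb and 22.0 to 118 for Ttk. The count of calls moved with single arrays: without the LSK MDS/MPN or the LSK RAEB array there were 0, without the wild-type LSK or the double mutant LSK array 1, without Tet2KD/KD LSK or any single GMP array without disease 2, and without either diseased GMP array 18, beside 9.68% of all genes higher. On the diseased LSK arrays the GMP marker median was 5.51 and 3.74, against 1.69 to 2.50 on the other LSK arrays, and in RAEB 6 of 7 B cell markers were well above background, against 2 or 3 on the other LSK arrays. On the LSK MDS/MPN array 7 of 7 late neutrophil markers were well above background, with a median of 1.99, against -2.72 to 0.32 on the other LSK arrays. The part of other cells in the member levels was not tested, and slide and disease cannot be told apart.

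In GMPs the diseased arrays split the members. Of 39, 9 were called lower and 0 higher, beside 9.49% of all genes lower and 13.4% higher. The members ran from -2.00 to 0.50, with a median of -0.01. Against the double mutant GMP array alone, 27 of 39 were positive in MDS/MPN and 6 in RAEB, beside 67.0% and 49.3% of all genes. All 9 called members were negative in both. Of the 9 called, 8 were mitotic: Bub1, Ttk, Kif11, Mki67, Top2a, Nusap1, Cenpe and Kif23; the ninth was Mcm4. For each of these 9 both diseased levels lay below all 4 others (23.1% of members, 14.8% of all genes), while for E2f1, Cdt1, Cdk2, Cenpa and Cdc20 both lay above all 4 others (12.8% of members, 28.9% of all genes), with no call. Without the GMP MDS/MPN array 15 members were lower, beside 14.7% of all genes. Without the GMP RAEB array 6 were lower and 7 higher, beside 7.40% and 9.76% of all genes.

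Mki67 was 4.66, 5.20, 5.62 and 4.35 on the GMP arrays without disease and 2.94 in MDS/MPN and 3.02 in RAEB. The difference was -1.98 (SE 0.39, adjusted p = 0.00752). Cenpe went from 2.52, 3.33, 3.53 and 2.26 to 0.72 and 1.096, a difference of -2.00 (SE 0.48, adjusted p = 0.0161). For both genes the 2 diseased levels stood clear of the other GMP arrays. Bub1 went from 1.84 to 2.10 without disease to 0.79 in MDS/MPN and 0.27 in RAEB (-1.49, SE 0.22, adjusted p = 0.00361), and Kif11 from 0.90 to 1.16 to -0.08 and -0.71 (-1.43, SE 0.24, adjusted p = 0.00468). Ttk was -1.93 to -1.60 without disease and -2.91 and -2.94 with it (-1.13, SE 0.17, adjusted p = 0.00366). With the normexp background correction the Ttk difference was -0.27 (adjusted p = 0.0748), and its probe was dim (raw intensities 22.0 to 118). Top2a went from 2.52 to 3.13 without disease to 2.07 and 1.52 (adjusted p = 0.0122). Nusap1 and Kif23 gave -0.83 and -0.65, and Mcm4 -0.48 (adjusted p = 0.0324).

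On diseased GMP arrays 9.49% of all genes were lower and 13.4% higher. Of 45 further mitotic genes, 15 were lower and 3 higher there. The smallest p were those of Ncapg (-3.01) and Smc2 (-1.58), both of condensin, Cenpk (-1.22) of the kinetochore and Ect2 (-1.09) of cytokinesis. Of 36 further replication genes, 2 were lower (Pola1 at -1.83 and Clspn at -0.77) and 0 higher. Of 17 E2F, pocket protein and MuvB genes, 3 were lower, including Rbl1 (-0.61), the p107 pocket protein, and 2 higher (E2f2 at 1.47 and Lin37 at 0.59). Of 7 CDK inhibitors, 3 were higher: Cdkn1a (2.30), Cdkn2d (0.92) and Cdkn2c (0.87). In LSK cells, 5 further mitotic genes were higher, including Kif4 (0.80) and Ccnf (0.83), beside 4.65% of all genes. Of the replication genes there, 4 were higher, including Brca1 (1.81), and 1, Cdc7 (-1.14), lower.

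Mitotic members of like function parted on the same arrays. On the GMP MDS/MPN array Plk1 was 5.62, Cdc20 6.26, Cenpa 4.09 and Aurka 4.94, each its highest level on any array, while Cenpe, Mki67, Bub1, Kif11 and Ttk lay below all GMP arrays without disease. In RAEB, Plk1 (4.72), Cdc20 (5.71) and Cenpa (3.64) stayed within or above the range of the GMP arrays without disease, and Aurka (3.95) lay below it. For all 8 called mitotic members the lowest of the 6 LSK levels was on the Tet2KD/KD array. Cenpe was 0.39 there, against 1.60 to 2.03 on the other LSK arrays. The same array was lowest for 4 of the 14 other mitotic members, and the share over all genes was not computed. In GMPs the direction was the opposite: the same 8 were higher on the Tet2KD/KD than on the wild-type array, by 0.06 (Bub1) to 0.81 (Cenpe). The 8 had RefSeq (GRCm38.p6) spans of 26.7 to 61.0 kb and a median of 31.8 kb, against a median of 11.7 kb for the other 14 (4.44 to 47.5 kb). Over all genes the median diseased GMP difference was 0.21, 0.19, 0.10 and 0.04 from the shortest to the longest of 4 equal classes by span (median spans 4.19, 13.9, 30.7 and 92.1 kb), and in LSK cells it was 0.02, 0.11, 0.14 and 0.09. The part of gene span or RNA quality in the member differences was not tested.

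**Figure D4:**
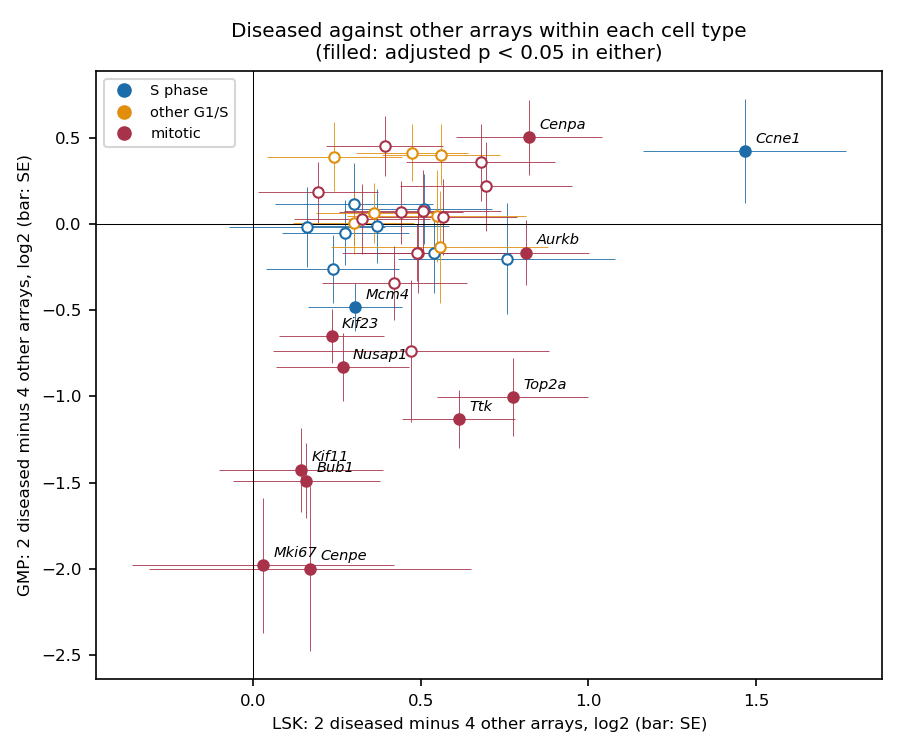
Difference between the 2 diseased and the 4 other arrays in LSK cells (x axis) and GMPs (y axis), log2 scale with standard errors, for 39 members; filled symbols have an adjusted p under 0.05 in either cell type. All members lie to the right of 0, and 8 mitotic genes and Mcm4 are called below 0 on the GMP axis. The 4 other arrays span the 4 genotypes, and both diseased arrays are double mutant.

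The difference between these disease effects was tested with an interaction term. It was lower for 3 members, beside 3.38% of all genes called lower: Ttk (-1.74, SE 0.30, adjusted p = 0.0303), Bub1 (-1.65, SE 0.32, adjusted p = 0.0356) and Top2a (-1.78, SE 0.37, adjusted p = 0.0394). The interaction was negative for 37 of 39 members, from -2.17 to 0.15, with a median of -0.50 against 0.05 for all genes; the S phase median was -0.46 and the mitotic median -0.71. Leaving out the MDS/MPN pair gave 11 members, beside 6.32% of all genes, and a median of -0.98; leaving out any other pair gave 0. Without the RAEB pair the term was positive for 16 of 39 members, with medians of -0.04 for the members, 0.03 for S phase, 0.19 for other G1/S and -0.29 for mitotic genes, against 0.20 for all genes. With normexp Ttk gave -0.31 (adjusted p = 0.199). Among further cell cycle genes the same term was lower for the polymerase gene Pola1 (-2.19) and the checkpoint gene Clspn (-1.59) of 36 replication genes, for 4 of 45 mitotic genes (Kif4, Cenpk, Smc2 and Ckap2, at -2.04 to -1.11), for the G1 kinase gene Cdk6 (-1.28) and for Myb (-0.99). It was higher for Cdkn1a (4.07, SE 0.63, adjusted p = 0.0302), the p21 inhibitor of cyclin-dependent kinases, the 1 called CDK inhibitor of 7. Late neutrophil markers were 7 of 7 well above background on both diseased GMP arrays, against 4 to 6 on the other GMP arrays. Their medians were 0.55 and 0.86 against -1.63 to -0.94. The median of the 3 monocyte markers with a probe was 6.21 in RAEB GMPs, against 2.64 to 3.92 on the other GMP arrays. These 3 did not move together. Their diseased GMP differences ran from -1.86 to 2.06 (Cd14, the 1 called higher), with 2 of 3 positive. The interaction term was lower for Ccr2 (-6.54) and Csf1r (-1.12). The part of neutrophil or monocyte cells in the result was not tested, and slide and the diseased GMP samples cannot be told apart.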

How the data were processed

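Total RNA of each sorted sample was labelled with Cy3 and hybridised to 1 single-colour Agilent array per sample, per the labels. The deposited scanner files hold spot intensities from Feature Extraction 10.7.1.1 (processed signal, already background-subtracted, with median and background signals for an alternative) and detection flags, per the file headers. The authors' value table held the same intensities at all spots. Here log2 processed signal minus the array's 75th percentile over gene spots was used, flagged outlier spots were left out, and probes were named through RefSeq accessions (26762 of 55681 probes). The brightest probe stood for a gene, and 13708 genes well above background on at least 2 of 12 arrays were tested with limma 3.58.1 (R 4.3.3), two-sided, Benjamini-Hochberg over all genes, threshold 0.05. The fits for GMP against LSK, for Ezh2 loss and for disease with cell types pooled were run on simulated data with independent noise. The other comparisons, among them disease within a cell type and the interaction terms, were not simulated. All members were named in every comparison, by value or by count and range, as the naming rule set; of each further list, counts and up to 4 called genes with the smallest p. Members and lists were chosen with earlier results of these data known. Samples are single arrays, so p-values measure the spread between arrays, which may be technical in part. Alternatives covered background correction, normalization, probe and gene filters, the block, the slide and each array left out. Disease within each cell type, and quantile and median centring within the 8 arrays, were chosen after seeing the data. Promoters came from RefSeq tables. Array numbers limit the precision.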

Additional observations from a re-analysis of the deposited data

Results flagged for a closer look

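Of the 39 members, 3 differed in their disease effect between the cell types by a test of that difference (limma interaction term, 12 arrays). By the same term 463 of 13708 genes (3.38%) were called lower and 589 higher, so calls were not particular to the members. The values are given without explanation. For Ttk the effect in GMPs minus that in LSK cells was -1.74 (adjusted p = 0.0303), for Bub1 -1.65 (adjusted p = 0.0356) and for Top2a -1.78 (adjusted p = 0.0394). With each of the 6 pairs left out, the 3 calls held only without the MDS/MPN pair (adjusted p = 0.0468, 0.0435 and 0.0418 for Ttk, Bub1 and Top2a) and were lost without each of the other 5. Ttk also lost its call with normexp (-0.31, adjusted p = 0.199), and the calls of Bub1 and Top2a held with normexp and with quantile normalization. No alternative run changed a sign.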

How the results depend on the processing

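The cell type comparison was paired by condition. Without that block it gave 9 members higher and 0 lower, against 11 and 0 with it, beside 27.6% and 25.7% of all genes higher. For GMP against LSK, members called higher numbered 7 with normexp (23.7% of all genes) and 3 with quantile (19.2%), where 1 was lower (22.7%). Within the 8 arrays without disease they numbered 27 (30.8%), and 22 there with median centring (28.4%). With an array left out they numbered 5 to 26 (17.6% to 30.1%). With quantile within the 8 arrays 1 was lower, beside 25.5% of all genes. Ccnb2 and Cdc20 turned to -0.021 and -0.058 with quantile over 12 arrays and to -0.00867 and -0.071 over 8. The disease effect in GMP minus LSK was lower for 11 members with normexp, 5 with quantile, 6 with no filter, 6 with genes well above background on all 12 arrays, 5 with trend and robust options and 0 to 11 with an array left out. Disease in LSK gave 15 members higher with normexp, 9 with no filter and 0 to 18 with an array left out; disease in GMP gave 0 to 7 higher and 6 to 15 lower with an array left out, and RAEB against MDS/MPN 0 to 2 lower. With quantile, group medians by array moved to -0.086 (S phase, wild-type LSK), -0.072 (S phase, double mutant LSK), and on the GMP MDS/MPN array to 0.041 (S phase), 0.46 (other G1/S) and 0.018 (mitotic). The counts for disease and for RAEB against MDS/MPN stand here without the share of all genes called in each setting. They therefore do not part a change in the members from a change over all genes. The cause of these changes was not tested. In a fit with a block, leaving out 1 array drops its pair. Ccne2 and most Cenpf levels are limited by signal near background. Ttk and Aurkb were well above background on all 12 arrays but dim (raw intensities 22.0 to 118 and 29.8 to 109).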
